A study of Caenorhabditis elegans with 6 samples.

Results

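The genes described here build and serve the apical face of the worm intestine. They are 9: act-5, erm-1 and eps-8, which belong to the microvilli, ifb-2, ifc-2, ifd-1 and ifd-2, which encode intermediate filament proteins, the peptide transporter gene pept-1 and the gut esterase gene ges-1. They were chosen by symbol in the platform annotation and were read by 15 probe sets of the 22625 on the array. All 9 genes, of 17118 that a probe set of their own named, passed the filter on dim signals (a log2 value of at least 4 on at least 3 arrays), through 14 probe sets. The other one, 193808_s_at of eps-8, lay at the lowest value of the table, 2.04, on all 6 arrays.

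Whole Caenorhabditis elegans worms were sampled, either N2, the wild-type strain, or worms carrying hlh-30(tm1978), a mutant allele of the gene for the helix-loop-helix transcription factor HLH-30, the worm counterpart of mammalian TFEB. Each genotype had 3 biological replicates, and for each of them RNA from embryos and from larvae of the first and second stages (L1, L2) was pooled and hybridised to 1 Affymetrix array. Neither group received a treatment, and the sources used here do not say whether the mutant was outcrossed. A value thus averages all tissues and the pooled stages, and fewer intestinal cells and less RNA per intestinal cell cannot be told apart.

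The worm intestine is a tube of large epithelial cells whose apical membranes face a shared lumen. Actin-filled microvilli form a brush border there, anchored in a terminal web, and beneath it lies a tough sheath of intermediate filaments, the endotube, that holds the lumen open. Nutrients are broken down in the lumen and taken up by transporters in the microvillar membrane. GATA factors such as ELT-2 are known to drive most genes of the differentiated gut.

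The labels were checked first on hlh-30 itself, whose 3 probe sets all read lower in each mutant sample than in any wild-type sample, with log2 differences of −1.88, −2.28 and −2.15 (limma adjusted p of 0.128, 0.26 and 0.121). The wild-type and the mutant array numbered 3 stood apart from the other arrays. Over the 9113 genes tested, mutant 3 held the lowest value of the 6 arrays in 31.1% and the highest in 27.9%, and wild type 3 the lowest in 26.3% and the highest in 20.0%. The differences of the 9 genes and the medians of the related lists are therefore also given with both arrays left out, which leaves 2 arrays in each group. On each array 31.7% to 32.3% of probe sets stood at the lowest value. Precision is limited by having only 3 arrays in a group.

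None of the 14 probe sets differed between the genotypes at an adjusted p under 0.05 (limma, Benjamini-Hochberg over the 12060 probe sets tested), where 0.133% of all probe sets tested were called. Their adjusted p ran from 0.26 to 0.909. At an unadjusted p under 0.05 there was 1 of the 14, 174548_at of ifc-2, against 9.05% of all probe sets. All 14 fitted differences were below 0, small in size and with intervals that mostly spanned 0, and with each gene stood for by its brightest probe set all 9 genes were below 0. The median over the 9 was −0.18 on the log2 scale, beside −0.010 over all genes tested, of which 53.8% were below 0. With both arrays numbered 3 left out, 3 of the 9 genes were below 0 and their median was 0.047, beside 56.4% of all genes and a median of −0.031. None of the 14 probe sets was called in that fit, where 1.98% of all probe sets were, and 2 had an unadjusted limma p under 0.05, where 25.1% of all did.

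The microvillar actin gene act-5 (Entrez gene 176793) encodes the actin that is specialised for intestinal microvilli. Its probe set, 189551_s_at, read log2 values of 13.86, 13.62 and 14.21 in wild type and 13.55, 13.64 and 13.25 in the mutant. The groups overlapped, since mutant 2 lay just above wild type 2, and wild type 3 was the highest and mutant 3 the lowest array. Wild type averaged 13.89 ± 0.29 (SD, n = 3) and the mutant 13.48 ± 0.21 (SD, n = 3). The mutant was 1.34-fold lower, a log2 difference of −0.42 (SE 0.19; limma adjusted p 0.619). The 95% interval ran from 1.87-fold lower to 1.05-fold higher. Without both arrays numbered 3 the difference was −0.14 (SE 0.11; limma adjusted p 0.506). The name ending _s_at marks a probe set that can match more than one transcript, and actin genes are close in sequence, so reads of other actins cannot be told apart at this probe set. Among those other actins, act-3 and act-4, each with a probe set of its own, differed by −0.098 (SE 0.14; limma adjusted p 0.844) and 0.074 (SE 0.15; limma adjusted p 0.887). Without both arrays numbered 3 they stood at 0.10 (SE 0.081) and 0.29 (SE 0.049), both above 0.

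ERM-1 is the single worm protein of the ezrin, radixin and moesin type and ties actin to the apical membrane, in the gut and also in the excretory canal. At the brighter of its 2 probe sets, 175003_at (Entrez gene 172174), wild type read 12.42, 12.38 and 12.45 and the mutant 12.41, 12.49 and 11.91. Mutants 1 and 2 lay within or above the narrow wild-type range, and only mutant 3 lay below it. The log2 difference was −0.14 (SE 0.17; limma adjusted p 0.808), with an interval from −0.58 to 0.29, and without both arrays numbered 3 it was 0.054 (SE 0.040; limma adjusted p 0.501). The second probe set, 189677_s_at, read 11.90, 11.85 and 12.10 against 11.87, 11.85 and 11.55, with the same array lowest and a difference of −0.19 (SE 0.12; limma adjusted p 0.709) that was −0.017 (SE 0.033) without both arrays.

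EPS-8 is known from mammals as a protein that caps and bundles actin filaments and sets the length of microvilli, and in the worm it is found at microvillar tips. Its gene (Entrez gene 178411) was read by 3 probe sets that passed the filter. At the brightest, 193793_s_at, wild type read 11.38, 11.1002 and 11.56 and the mutant 11.32, 11.26 and 10.96, a difference of −0.17 (SE 0.16; limma adjusted p 0.789) that turned to 0.047 (SE 0.12) without both arrays numbered 3. At 174712_at the values were 11.24, 11.24 and 11.29 against 11.24, 11.40 and 10.29. There 5 arrays lay close together and mutant 3 alone was 1.03 log2 units under the mean of the other mutants, and this gave the largest SD of any member, 0.60 in the mutant against 0.028 in wild type. The difference at this probe set was −0.28 (SE 0.31; limma adjusted p 0.805) with all arrays and 0.081 (SE 0.072) without both numbered 3. The third, 193765_at, read 9.53, 9.49 and 9.88 against 9.65, 9.72 and 9.31. Its difference was −0.069 (SE 0.16) with all arrays. It was 0.18 (SE 0.040; unadjusted limma p 0.024, adjusted p 0.135) without both arrays numbered 3, where mutants 1 and 2 lay above wild types 1 and 2.

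Of the endotube genes, ifc-2 (Entrez gene 180414) was the one with separate groups. Its brightest probe set, 174548_at, read 11.03, 11.18 and 11.17 in wild type and 10.81, 10.83 and 10.62 in the mutant. Every mutant array lay below every wild-type array. Wild type averaged 11.13 ± 0.084 (SD, n = 3) and the mutant 10.75 ± 0.12 (SD, n = 3). The mutant was 1.30-fold lower, with a log2 difference of −0.37 (SE 0.084), an interval from −0.59 to −0.16, an unadjusted limma p of 0.00665 and an adjusted p of 0.26. By unadjusted p it ranked 309 among the 12060 probe sets. Without both arrays numbered 3 the difference was −0.29 (SE 0.068; limma adjusted p 0.149). With array quality weights it was −0.30 (SE 0.050) and passed the threshold (limma adjusted p 0.0385). With those weights 563 of the 9113 genes tested were called, against 13 in the main fit.

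The other probe sets of ifc-2 did not separate the genotypes. At 193073_at wild type read 9.78, 9.44 and 9.93 and the mutant 9.44, 9.38 and 9.41, a difference of −0.31 (SE 0.14; limma adjusted p 0.617) that was −0.20 (SE 0.15) without both arrays numbered 3, and wild type 2 and mutant 1 held the same value. At 171840_x_at the values were 6.11, 6.11 and 6.45 against 6.11, 6.28 and 6.11, identical on 4 arrays, with a difference of −0.056 (SE 0.12; limma adjusted p 0.901) that turned to 0.087 (SE 0.076). The ending _x_at marks a probe set that may also bind other transcripts. Over the 3 probe sets the difference thus ranged from −0.37 to −0.056.

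The other 3 filament genes followed one another closely. IFB-2 is the filament protein by which the endotube is usually stained, and ifb-2 (Entrez gene 173973, 192118_s_at) read 12.79, 12.69 and 13.21 in wild type and 12.76, 12.86 and 12.53 in the mutant. ifd-1 (Entrez gene 187585, 193321_at) read 10.39, 10.09 and 10.88 against 10.39, 10.50 and 10.05. ifd-2 (Entrez gene 180430, 192454_s_at) read 10.03, 9.93 and 10.42 against 10.03, 10.07 and 9.73. In all 3 the groups overlapped, wild type 3 was the highest array and mutant 3 the lowest, and mutant 2 lay above wild types 1 and 2.

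Their log2 differences were −0.18 (SE 0.17) for ifb-2, −0.14 (SE 0.24) for ifd-1 and −0.19 (SE 0.17) for ifd-2, with limma adjusted p of 0.789, 0.875 and 0.789. Without both arrays numbered 3 they were 0.070 (SE 0.060), 0.21 (SE 0.14) and 0.070 (SE 0.049), above 0 in each case, with limma adjusted p of 0.528, 0.463 and 0.481. For ifd-1 the difference also stood above 0, at 0.077, without wild type 3 alone. Over the 6 arrays the values of ifb-2 and ifd-2 had a Pearson r of 0.993, the highest of the 36 pairs of members, while ifc-2 and ifd-1 had the lowest, 0.397. These correlations share the 6 arrays and are given as a description.

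PEPT-1 carries short peptides with protons across the apical membrane and is the main route of peptide uptake in the gut. Its gene (Entrez gene 180919, 193068_at) read 11.12, 11.23 and 11.36 in wild type and 11.12, 11.28 and 11.03 in the mutant. The arrays of the genotypes were intermixed, and wild type 1 and mutant 1 held the same value. The log2 difference was −0.094 (SE 0.097), the smallest of the 9 genes, with a limma adjusted p of 0.795. Its interval ran from 1.27-fold lower to 1.11-fold higher, and without both arrays numbered 3 the difference was 0.025 (SE 0.082).

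GES-1 is a carboxylesterase of the gut whose gene is a standard marker of intestinal differentiation, in embryos as well as in larvae. ges-1 (Entrez gene 178633, 191666_s_at) read 7.70, 7.31 and 7.34 in wild type and 7.15, 7.26 and 6.76 in the mutant. All mutant arrays lay below all wild-type arrays, mutant 2 by a small margin, and here wild type 1 and not wild type 3 was the highest. Averages were 7.45 ± 0.21 (SD, n = 3) in wild type and 7.06 ± 0.26 (SD, n = 3) in the mutant. The mutant was 1.31-fold lower, with a log2 difference of −0.39 (SE 0.18; limma adjusted p 0.619) and an interval from 1.81-fold lower to 1.05-fold higher. Without both arrays numbered 3 it was −0.30 (SE 0.17; limma adjusted p 0.417).

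ges-1 and ifc-2 were thus the members whose groups did not overlap, 2 of 9 genes, both lower in the mutant, where 9.87% of all genes tested were separate in that direction and 13.6% in either. Over probe sets they were 2 of 14, beside 10.7% in that direction and 14.4% in either. The 3 members that stayed below 0 without both arrays numbered 3 were ges-1, ifc-2 and act-5.

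**Figure D1:**
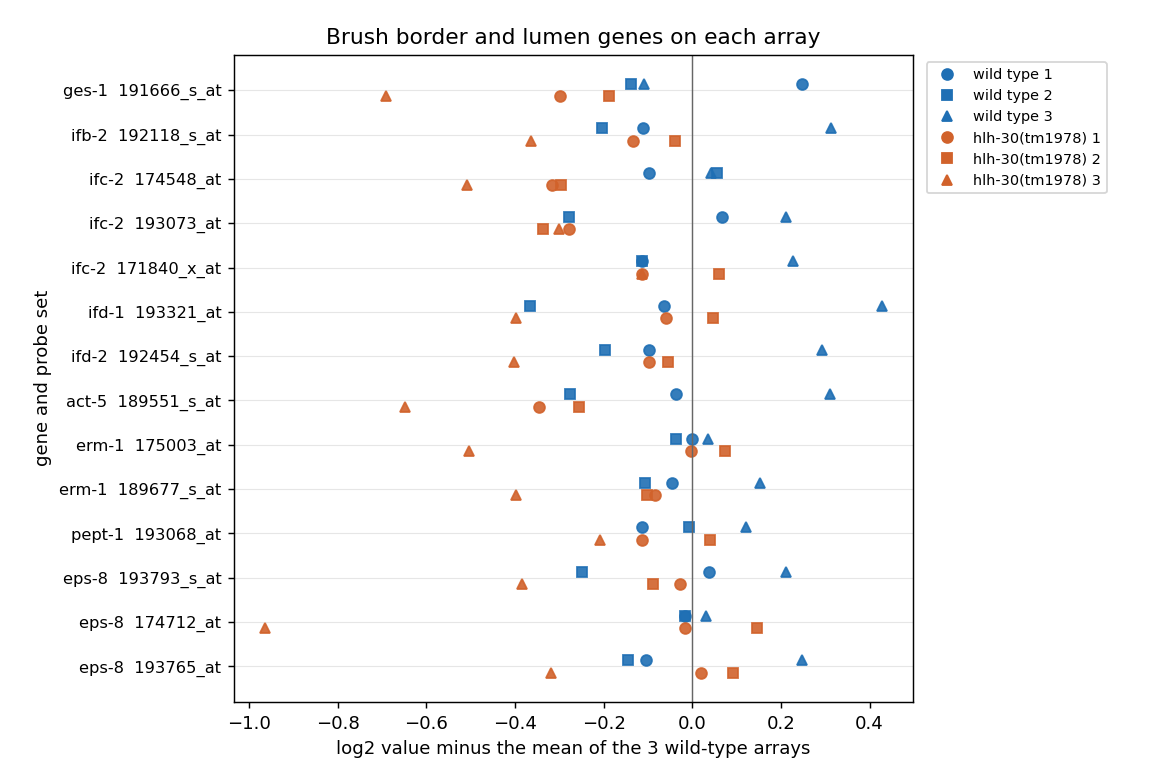
Each row is 1 probe set that passed the filter, and each point is 1 array, drawn as its log2 value minus the mean of the 3 wild-type arrays (blue, wild type, upper; orange, hlh-30(tm1978), lower; the shape gives the replicate number, and identical values lie on top of each other). Mutant 3 is the leftmost point in 12 of the 14 rows, and the colours are separate in 2 rows, ges-1 and ifc-2 174548_at.

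The feature common to all 9 genes was the place of mutant 3 among the arrays. Mutant 3 held the lowest of the 6 values in all 9 genes, where it did so in 31.1% of all genes tested. Wild type 3 held the highest value in 6 of the 9, against 20.0% of all genes. The mean log2 level of the 9 genes was 11.19, 11.06 and 11.40 on the wild-type arrays and 11.06, 11.13 and 10.76 on the mutant arrays. Mutants 1 and 2 lay inside the wild-type range and mutant 3 below it, so that the mean difference was −0.23 with all arrays and −0.028 without those numbered 3. All 36 pairs of members had a Pearson r above 0 over the 6 arrays, with a median of 0.722.

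**Figure D2:**
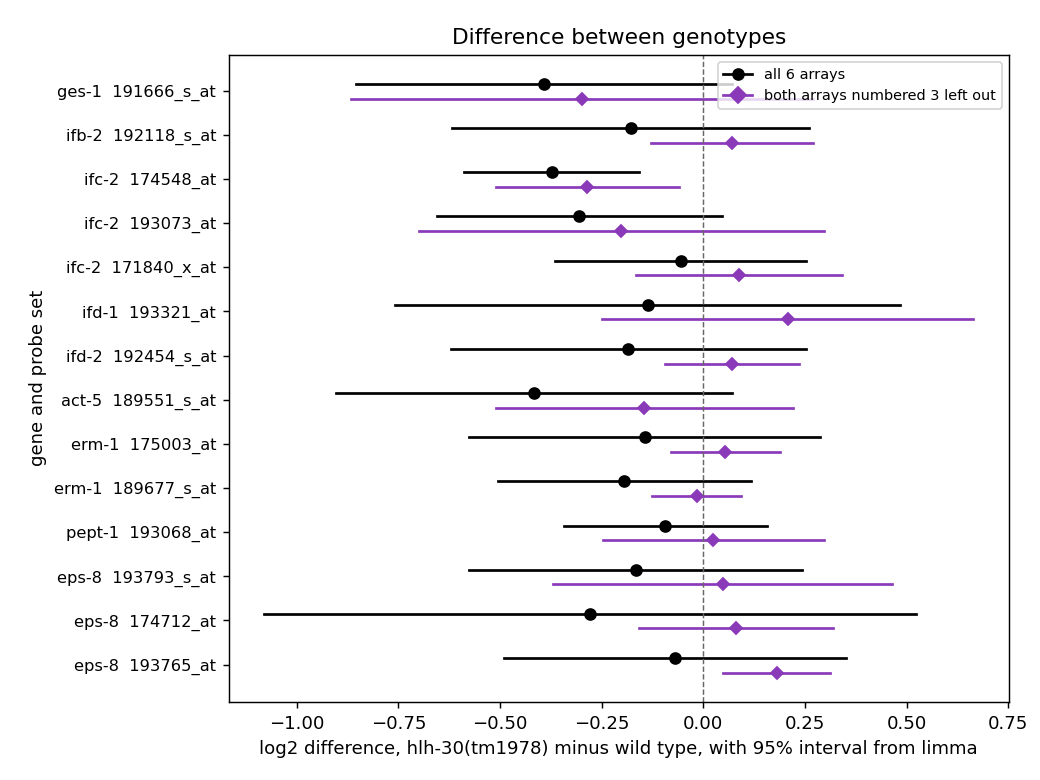
Points give the log2 difference of each probe set, hlh-30(tm1978) minus wild type, and lines its 95% interval from limma, with all 6 arrays (black circles) and with both arrays numbered 3 left out (purple diamonds). All 14 circles lie below 0 and 5 of the 14 diamonds do, and with all arrays the interval of ifc-2 174548_at alone lies wholly below 0.

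Outside the 9, the genes whose values were most like their mean profile over the 6 arrays were ptp-4A2 (Pearson r 0.996), F53A3.1 (0.996) and unc-112 (0.995), the last encoding a kindlin of muscle attachment sites. They were not alone in this, as 384 of 8936 genes had an r above 0.9. The 3 genes differed between genotypes by −0.28, −0.23 and −0.25 (limma adjusted p of 0.692, 0.719 and 0.70).

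Related genes were counted in lists, beside a background of 0.143% of genes called at an adjusted p under 0.05 and 8.59% at an unadjusted limma p under 0.05. Of 8 further intermediate filament genes none was called and 8 were below 0, with a median of −0.18 that was 0.050 without both arrays numbered 3, and none had an unadjusted p under 0.05. Among them ifc-1, an intestinal filament gene close to ifc-2 in name, read 10.59, 10.29 and 11.49 in wild type and 10.38, 10.20 and 10.37 in the mutant (difference −0.47, SE 0.33; limma adjusted p 0.731), with wild type 3 far above the rest. Its difference was −0.15 (SE 0.15) without both arrays numbered 3. Of 11 tested genes of the intestinal apical cytoskeleton and its regulators, which share ifc-1, ifp-1 and ifa-4 with the filament list, 9 were below 0, none was called and 1 had an unadjusted p under 0.05. The median was −0.15, and 0.14 without both arrays.

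One of these, bbln-1, encodes a small coiled-coil protein that keeps the intestinal filament sheath in order, and it lay the other way. It read 11.76, 11.83 and 11.68 in wild type and 12.04, 11.92 and 12.17 in the mutant. Every mutant array was above every wild-type array, as for 3.76% of all genes tested. The difference was 0.29 (SE 0.086; limma adjusted p 0.409), and 0.18 (SE 0.063) without both arrays numbered 3.

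Polarity and junction genes, which set up the apical domain, and genes of apical sorting had medians of −0.061 over 14 genes and −0.057 over 15. Both medians turned above 0, to 0.21 and 0.026, without both arrays numbered 3. None was called, and 1 gene of each list, cdc-42 and rab-5, had an unadjusted p under 0.05. cdc-42, a small GTPase of the polarity complex, differed by −0.36 (SE 0.11; limma adjusted p 0.429). rab-5, the GTPase of early endosomes, differed by −0.39 (SE 0.087; limma adjusted p 0.26). Both had separate groups, and both stayed near these values without the arrays numbered 3, at −0.27 (SE 0.10) and −0.35 (SE 0.10). Of 9 other genes with a FERM domain, the fold that ERM-1 uses to bind membranes, 7 were below 0 with a median of −0.18, which turned to 0.043 without both arrays numbered 3, and none was called. frm-10 was the 1 gene with an unadjusted p under 0.05, with a difference of −0.62 (SE 0.12; limma adjusted p 0.209), and −0.70 (SE 0.17) without both arrays.

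Transporters of the apical membrane and enzymes of the gut lumen and lysosome were below 0 in 23 of 25 genes, with none called and 8 at an unadjusted limma p under 0.05. Their median was −0.19, close to that of the 9 brush border genes, but it was −0.14 without both arrays numbered 3, where the 9 genes had 0.047; this difference between the lists was not tested. Among the 25, 8 had separate groups with the mutant lower, as had 9.87% of all genes tested. cpr-4, a cathepsin B-like protease, read 12.90, 12.69 and 13.11 in wild type and 11.52, 11.93 and 11.90 in the mutant, a difference of −1.12 (SE 0.17; limma adjusted p 0.122) that was −1.07 without both arrays. The related protease gene cpr-1 differed by −0.92 (SE 0.23; limma adjusted p 0.298), and the heavy metal transporter gene hmt-1 by −0.25 (SE 0.059; limma adjusted p 0.269). Without both arrays these were −0.70 (SE 0.23) and −0.21 (SE 0.027).

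The gut regulators did not share one direction. elt-2, the GATA factor of the differentiated intestine, read 8.43, 8.57 and 8.46 in wild type and 8.87, 8.95 and 8.51 in the mutant at its brighter probe set, so mutants 1 and 2 lay above wild type and mutant 3 within it. Its difference was 0.29 (SE 0.13; limma adjusted p 0.62) and 0.41 (SE 0.072) without both arrays numbered 3. pqm-1, a zinc finger factor active in the gut, had separate groups and differed by −0.67 (SE 0.10; limma adjusted p 0.128), and by −0.54 (SE 0.064) without both arrays. Of the 9 regulators tested 7 were below 0, with a median of −0.17 that was −0.093 without both arrays and none called, and pqm-1 alone had an unadjusted p under 0.05. The 7 include lin-26 and pha-4, which are also counted below among the hypodermal and pharynx markers.

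Of the 14 intestine markers on the array 13 passed the filter, as did 9113 of all 17118 genes. No marker of that list lay at the lowest value on all arrays. The mean log2 level of these markers ran from 10.78 to 11.05 in wild type and from 10.54 to 10.80 in the mutant. On mutant 3 it lay 0.16 under the other mutants. Of the 13, 10 were below 0, none was called and 5 had an unadjusted limma p under 0.05. The median difference was −0.19, and −0.13 without both arrays numbered 3. Several of these markers, cpr-1 among them, are also in the list of transporters and enzymes. The related lists lay from 0.13 (transporters and enzymes) to 0.47 (polarity and junction genes) under the other mutants on mutant 3. Markers of other cell types did not all stand alike on the arrays. The body wall muscle markers, all 12 tested, ran from 12.56 to 12.90 in wild type and from 12.02 to 12.34 in the mutant. Every mutant array thus lay below every wild-type array for the mean level of the muscle markers. On mutant 3 they lay 0.27 under the other mutants, where the 9 brush border genes lay 0.34 under them. The median difference of the muscle markers was −0.58, with 11 below 0, and it was −0.33 without both arrays numbered 3. By single gene, 8 of the 12 had separate groups with the mutant lower and 1 with the mutant higher, beside 9.87% and 3.76% of all genes tested. An unadjusted limma p under 0.05 was found for 9 of the 12, beside 8.59% of all genes. One of the 12, tnt-2, a troponin T gene, fell (log2 difference −1.01, SE 0.070; limma adjusted p 0.0352). The 9 pharynx markers ran from 9.89 to 10.53 and from 9.80 to 10.09, with wild type 3 highest and mutant 3 lowest.

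Germline and early embryo markers, of which 10 of 15 passed the filter, lay the other way on the arrays numbered 3. Their mean log2 level was 8.03, 7.81 and 7.42 in wild type and 7.32, 7.41 and 8.77 in the mutant. Mutants 1 and 2 lay below every wild-type array, while mutant 3 lay 1.41 above them and wild type 3 lay 0.50 below the other wild types. The median difference of these markers was 0.11 with all arrays and turned to −0.39 without both numbered 3. The arrays of wild type 3 and mutant 3 thus stood on opposite sides for these markers and for the brush border genes. The part of these shifts in the values of the 9 genes was not tested. Hypodermal markers were 0.19 lower on mutant 3 than on the other mutants, neuronal markers 0.16 lower, and those of the excretory canal, where erm-1 is also used, 0.10 higher. On wild type 3 the hypodermal markers were 0.32 lower than on the other wild types. At the lowest value on all arrays were rgef-1 and unc-31 among the neuronal markers and exc-4 among those of the canal.

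**Figure D3:**
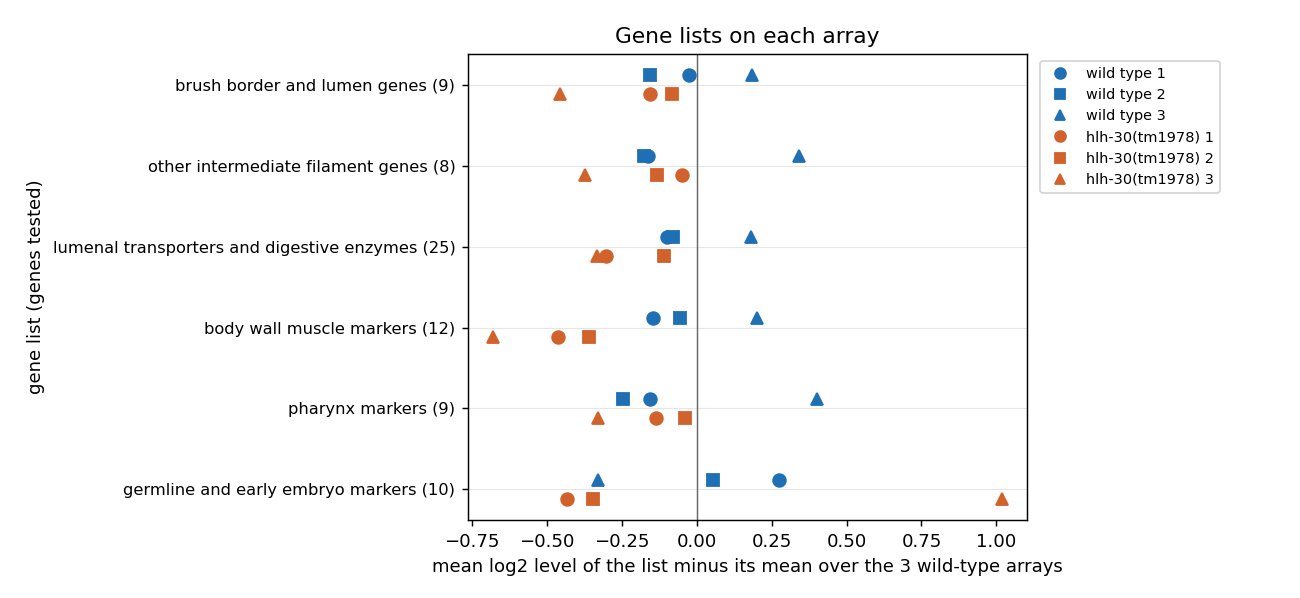
Each point is the mean log2 level of a gene list on 1 array minus the mean of that list over the 3 wild-type arrays (blue, wild type; orange, hlh-30(tm1978); shapes give the replicate number; the number of tested genes is in brackets). Mutant 3 is the lowest array for the first 5 lists and the highest for germline and early embryo markers.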

How the data were processed

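The values deposited by the authors are on a log2 scale, with 1 for every probe set on every array, for 3 wild-type and 3 hlh-30(tm1978) samples. GCRMA and limma are named per the submitters' processing notes, and the sources used here give no versions, settings or genome build. Scanner intensities were not analysed here. Samples were grouped by their titles. Genes were named from the platform annotation, only through probe sets with 1 gene (20766), and all 9 members matched RefSeq by Entrez number. The 77 control probe sets and those without a log2 value of at least 4 on at least 3 arrays were left out.

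The fit of mutant minus wild type used lmFit and eBayes of limma 3.58.1 (R 4.3.3) with no covariate. Adjusted p-values are Benjamini-Hochberg over the 12060 probe sets tested, and counts of called genes are adjusted over 9113 genes, each stood for by its brightest probe set. With 3 arrays against 3, an exact permutation test cannot give a p under 0.1. Named genes are the 9 members, hlh-30, elt-2, up to 3 genes per related list with the smallest p, and the 3 most like the members. The members, the lists and the alternatives, among them leaving out both arrays numbered 3, were chosen with earlier results of these data known. Lists are described by counts and medians. The alternatives were other filters, scalings, variance models and array weights, the mean of a gene's probe sets, the replicate block, another threshold and arrays left out. Sequences were not analysed here.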

Additional observations from a re-analysis of the deposited data

How the results depend on the processing

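Of 144 values of single members under the alternatives, 130 kept their sign and their side of the threshold and 13 changed sign. The remaining 1, ifc-2 with array quality weights, passed the threshold (−0.30, limma adjusted p 0.0385). The other filters, a floor under dim values, the other variance model and the replicate block left each member's difference as in the main fit. So did the mean of probe sets for members with 1 tested probe set. In these fits only the adjusted p could change, so the 130 values are not all separate checks of the sign. The median of the 9 genes, −0.18 with all arrays, ran from −0.29 to −0.061 with 1 array left out. It turned to 0.0034 with array quality weights, which gave wild type 3 a weight of 0.27 and mutant 3 one of 0.12, and to 0.047 with both arrays numbered 3 left out. Mutant 1 had the largest of these weights, 6.76. With the weights, ifb-2 read 0.0034, ifd-1 0.13, ifd-2 0.022, erm-1 0.019 and eps-8 0.041. With both arrays left out, ifb-2 and ifd-2 read 0.070 each, ifd-1 0.21, erm-1 0.054, pept-1 0.025 and eps-8 0.047. With 1 array left out, ifd-1 ran from −0.32 to 0.077 (without wild type 3) and erm-1 from −0.25 to 0.036 (without mutant 3). The number of member probe sets called was 0 under the other alternatives and 1 with the weights. Quantile normalization and median centring kept all 9 genes below 0, at medians of −0.14 and −0.12 beside 0.029 and 0.051 over all genes.

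Over all genes, 13 were called, against 1 without the filter, 29 with the mean of a gene's probe sets, 563 with array quality weights (132 higher, or 23.4%, against 7.69%), 319 without both arrays numbered 3, 45 at an adjusted p threshold of 0.1, and 0 to 2 with 1 array left out. With the replicate block 0 genes were called by limma and no member changed its call. Deviations from the group means correlated at −0.41, −0.42 and −0.52 between arrays of the same number. These deviations sum to 0 within each group, so the correlations cannot show whether samples of the same number were paired.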
